A study of Mus musculus with 24 samples.

Results

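Gene expression was followed over the early subjective night in inguinal fat, a subcutaneous depot, of Ad-Bmal1-/- mice, by setting the 3 knockout arrays taken at circadian time CT18 against the 3 taken at CT12. These 6 arrays were chosen by their titles, out of 24 Affymetrix mouse gene arrays, each labelled as a biological replicate from a mouse. The knockout mice carry aP2-Cre+/- and Bmal1fx/fx. The control mice carry Bmal1fx/fx without the Cre, and their 3 arrays at CT12 and 3 at CT18 give the same hours with the gene intact. The aP2 promoter drives the recombinase, which leaves Bmal1 in cells where that promoter is silent, and the effect of Cre itself cannot be told apart from that of the deletion. All mice, controls included, were of C57BL/6J background after at least 6 generations of crossing, were fed chow, had been in constant darkness for 36 h before collection began and had been fasted for 24 h. CT0 is the start of the subjective day, so CT12 opens the hours in which mice are active and CT18 is the middle of their night. Values are log2 expression, so a difference of 1 is a doubling, and a log2 difference below 0 means a lower value at CT18.

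The circadian clock of a cell is a loop of transcription factors. BMAL1, whose gene symbol is Arntl, pairs with CLOCK and activates genes that carry E-boxes, among them the Period and Cryptochrome genes, whose proteins repress the pair. The same pair activates Nr1d1 and Nr1d2, which encode the nuclear receptors REV-ERB alpha and REV-ERB beta, and these repress Arntl, Clock, Cry1 and Nfil3 through RORE elements. Output factors of the PAR bZIP family (Dbp, Tef, Hlf) activate D-box genes, which NFIL3 represses. In fat the clock is known to run in adipocytes and in the stromal and immune cells between them, and whole tissue sums all of them, so fewer cells of a type and less RNA per cell cannot be told apart.

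Some promoters of this loop are shown, taken from its different arms and not by the size of the difference alone. Dbp and Bhlhe41 differed more between the hours than Per3, and Hlf more than Arntl, and their windows are not printed. They are RefSeq windows of GRCm38.p6, each 300 bases long, from 250 bases before a transcript's start to 50 after it, read 5′ to 3′ on the gene's strand. Capitals mark the E-prime-box in Nr1d1 (AACGTG, the other strand of CACGTT), a pair of D-boxes in Per3 (TTATGTAA), and 1 RORE core each in Nfil3 (TGACCTA, the other strand of TAGGTCA) and in the second of the Arntl windows (TAGGTCA). Nr1d2 has no capitals because none of the letters searched occurs in its window.
Nr1d1 promoter, chr11:98775328-98775627, minus strand: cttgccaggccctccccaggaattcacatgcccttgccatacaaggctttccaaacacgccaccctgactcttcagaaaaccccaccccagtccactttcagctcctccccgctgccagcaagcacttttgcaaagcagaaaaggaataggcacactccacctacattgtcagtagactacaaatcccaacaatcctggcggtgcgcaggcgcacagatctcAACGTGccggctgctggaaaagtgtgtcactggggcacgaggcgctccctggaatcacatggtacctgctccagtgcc
Nr1d2 promoter, chr14:18239057-18239356, minus strand: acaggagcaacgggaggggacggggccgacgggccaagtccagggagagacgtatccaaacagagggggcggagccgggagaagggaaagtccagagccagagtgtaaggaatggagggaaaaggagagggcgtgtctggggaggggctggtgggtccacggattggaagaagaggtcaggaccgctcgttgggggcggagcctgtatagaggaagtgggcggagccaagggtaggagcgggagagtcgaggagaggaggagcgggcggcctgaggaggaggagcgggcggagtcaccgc
Per3 promoter, chr4:151044616-151044915, minus strand: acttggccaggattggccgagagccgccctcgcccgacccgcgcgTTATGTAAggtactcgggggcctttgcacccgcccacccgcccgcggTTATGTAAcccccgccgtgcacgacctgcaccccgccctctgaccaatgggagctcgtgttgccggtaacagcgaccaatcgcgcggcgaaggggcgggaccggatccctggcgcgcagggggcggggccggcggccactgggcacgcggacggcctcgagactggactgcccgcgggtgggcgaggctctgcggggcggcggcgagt
Nfil3 promoter, chr13:52980990-52981289, minus strand: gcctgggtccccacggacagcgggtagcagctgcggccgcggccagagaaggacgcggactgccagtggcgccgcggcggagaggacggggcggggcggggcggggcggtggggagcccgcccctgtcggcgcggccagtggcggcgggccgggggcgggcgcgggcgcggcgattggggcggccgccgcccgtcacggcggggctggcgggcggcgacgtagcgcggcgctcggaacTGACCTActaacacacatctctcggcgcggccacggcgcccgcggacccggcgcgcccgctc
Arntl promoter, chr7:113207261-113207560, plus strand: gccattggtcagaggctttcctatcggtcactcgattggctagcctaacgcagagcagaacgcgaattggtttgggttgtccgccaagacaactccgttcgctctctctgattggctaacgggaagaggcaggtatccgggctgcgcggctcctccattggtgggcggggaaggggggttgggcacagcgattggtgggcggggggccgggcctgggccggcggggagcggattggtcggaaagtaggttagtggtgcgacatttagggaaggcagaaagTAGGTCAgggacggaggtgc

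Over all 32851 RefSeq windows of this length, searched on both strands, the E-box CACGTG occurred in 7.15%, the E-prime-box CACGTT in 4.68%, the D-box (TTATGTAA or TTACATAA) in 0.938% and the RORE core (TAGGTCA or TGGGTCA) in 6.45%. Of 18 genes looked up, the clock genes and Apod, 16 had a window. E-boxes lay in the windows of Per1, Cry1, Tef, Bhlhe41 and Ciart, and E-prime-boxes in those of Nr1d1, Cry1 and Cry2. No searched motif lay in the windows of Dbp, Hlf, Clock, Rora or Apod, which says only that the letters are not in these 300 bases.

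Before the results, the arrays themselves differ in ways that the labels do not give. Adipocyte genes were bright on all 6 arrays, with Fabp4, the fatty acid carrier whose promoter is called aP2, between 12.50 and 12.58, and Adipoq, the gene of adiponectin, between 11.91 and 12.13. Knockout replicate 1 at CT12 and knockout replicate 3 at CT18 lay toward the control arrays in genes that otherwise separated the genotypes. The lipase gene Ces1d read 11.06 on that CT12 array against 9.99 and 10.26 on the others, and the channel gene Trpv2 read 6.35 against 7.44 and 7.32. On that CT18 array Trpv2 read 6.39 against 7.69 and 7.13, and Zim1, an imprinted zinc finger gene, read 5.24 against 9.05 and 9.19. The same-numbered control arrays lay the other way in some of these genes. Zim1 read 9.21 on control replicate 1 at CT12 against 7.16 and 6.90, and 8.80 on control replicate 3 at CT18 against 6.83 and 6.08. Ces1d read 10.33 on the former against 10.94 and 11.09, and Trpv2 read 7.05 on the latter against 6.42 and 6.38. Whether labels were exchanged between these same-numbered arrays was not tested. All 4 arrays keep their labels here, and some results are also given without all 4.

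Arntl, the targeted gene, was measured on each array. Knockout fat gave 6.46, 6.89 and 6.87 for CT12, followed by 7.43, 7.29 and 7.07 for CT18. Control fat gave 6.75, 6.04 and 6.22, followed by 7.04, 7.38 and 7.55. The genotypes overlapped at both times. The labels do not say which exons are removed, so the probe set cannot check the deletion.

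Between CT12 and CT18 both REV-ERB genes and Apod fell in knockout fat. Nr1d1 fell by 1.39 on the log2 scale, to 0.381 of its CT12 level, and Nr1d2 fell by 1.29, to 0.409. Apod, which encodes apolipoprotein D, a secreted carrier of small lipids, fell by 1.47, to 0.362. These 3 genes of 19938 (0.015%) passed an adjusted p of 0.05 with limma, and all fell. No gene passed in the other direction. At an unadjusted p of 0.05, 2782 genes (14%) were reached, 1617 of them higher (8.11%) and 1165 lower (5.84%) at CT18. Without knockout replicate 2 at CT12 these were 1752, 1021 and 731. The control step over the same hours had 5 genes past the adjusted threshold (0.0251%) and 1109 at the unadjusted one (5.56%).

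In knockout fat Nr1d1 read 8.67, 8.36 and 8.43 at CT12 against 7.10, 7.11 and 7.07 at CT18. The CT18 arrays had an SD of 0.0223 (n = 3) and all lay below the lowest CT12 array. The difference was −1.39 ± 0.158 (SE, limma adjusted p = 0.000333), with a 95% interval from −1.72 to −1.06. In control fat Nr1d1 read 8.69, 9.19 and 8.98 and then 7.55, 7.31 and 7.37, and fell by 1.55 ± 0.158 (limma adjusted p = 5.49e-05). Its level in knockout fat ran from a mean of 7.96 at CT0 over 9.26 at CT6 to 8.49 at CT12 and 7.09 at CT18, with the highest mean at CT6 and the lowest at CT18.

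Nr1d2 read 9.10, 8.77 and 8.48 in knockout fat at CT12 against 7.31, 7.43 and 7.74 at CT18. The groups did not overlap. The array of CT18 with the highest value was replicate 3. The difference was −1.29 ± 0.167 (SE, limma adjusted p = 0.00138), and the control step was −1.21 ± 0.167 (limma adjusted p = 0.00376). In the model restricted to the 6 knockout arrays, which has fewer degrees of freedom, the adjusted p was 0.0951 for Nr1d2 and 0.12 for Apod, and Nr1d1 passed with 0.00213.

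Apod read 9.47, 8.80 and 8.55 in knockout fat at CT12 against 7.41, 7.43 and 7.58 at CT18. The 3 later arrays lay close together and the earlier ones were spread. The difference was −1.47 ± 0.208 (SE, limma adjusted p = 0.0039). In control fat it read 8.75, 9.37 and 9.06 and then 7.87, 7.88 and 8.40, a log2 difference of −1.01 that did not pass (limma adjusted p = 0.175). The difference between these steps was −0.45 ± 0.294, with a 95% interval from −1.07 to 0.16, and did not pass (limma adjusted p = 0.999). Without replicate 1 at CT12 and replicate 3 at CT18 of both genotypes, Nr1d1, Nr1d2 and Apod fell by 1.29, 1.25 and 1.25 in knockout fat (limma adjusted p = 0.0268, 0.000173 and 0.0268). In that setting Apod also fell in control fat, by 1.34 (limma adjusted p = 0.00854).

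**Figure D1:**
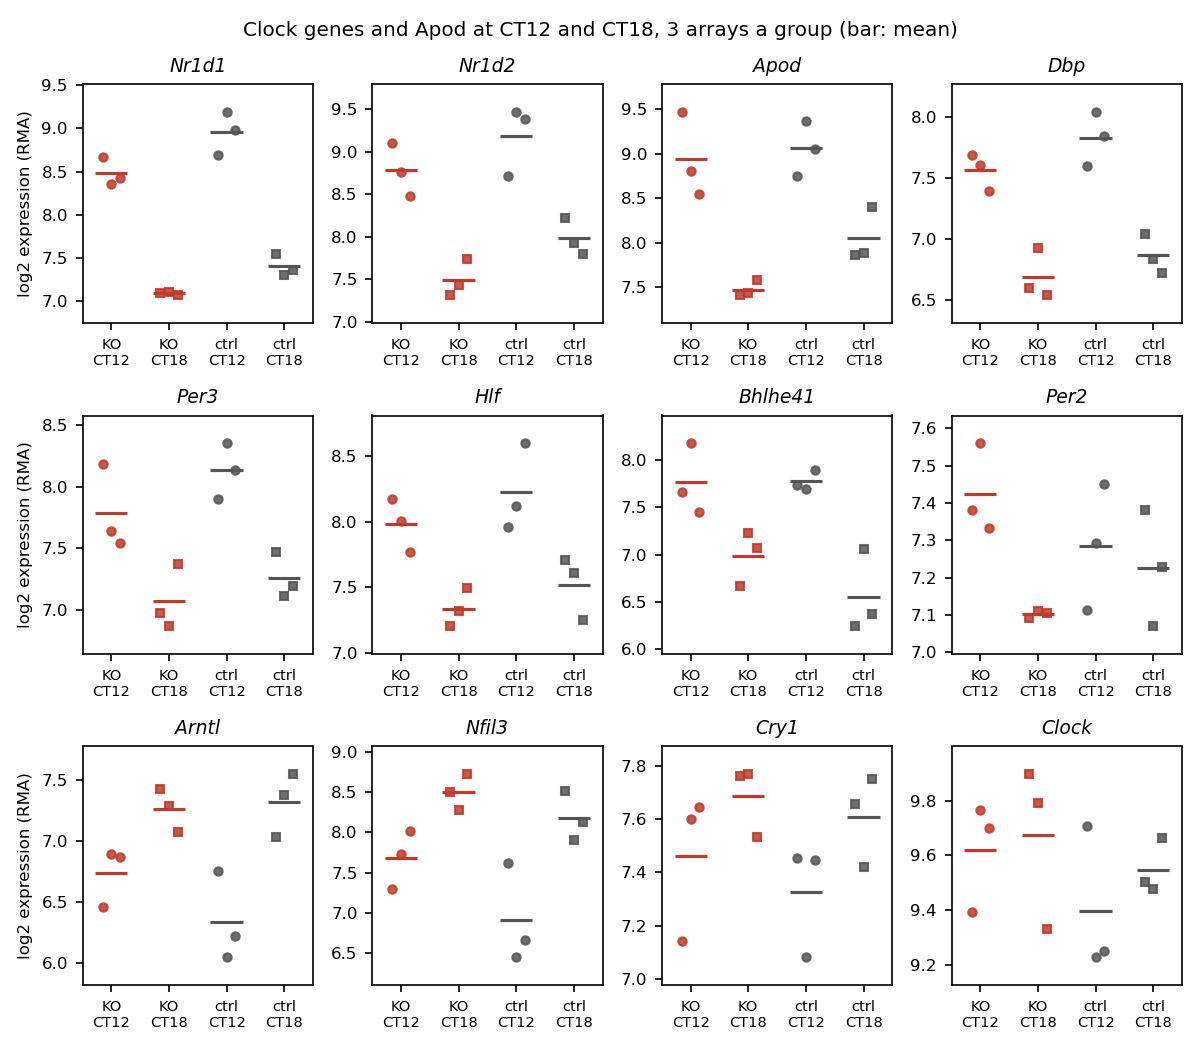
Log2 expression of 11 clock genes and Apod on each of the 3 arrays a group, for knockout (KO) and control (ctrl) fat at CT12 and CT18, with points for arrays and a bar for the group mean; each panel has its own vertical scale. Nr1d1, Nr1d2 and Apod lay lower on all 3 knockout arrays at CT18 than on any at CT12, and Arntl and Nfil3 lay higher.

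Of the 17 clock genes measured, 12 were lower and 5 higher at CT18 in knockout fat by sign alone, and over all genes 59.6% were above 0 in knockout fat and 55.3% in control fat. On 8 of them the 3 arrays at CT18 all lay below the 3 at CT12, and on 2 (Arntl and Nfil3) all above, where 6.98% and 10.8% of all genes had such an order. The median over the 17 was −0.18, beside 0.04 over all genes tested. An unadjusted p under 0.05 was reached by 9, where 14% of all genes reached it, and the adjusted threshold by 2, Nr1d1 and Nr1d2. In control fat 10 reached the unadjusted threshold, where 5.56% of all genes did, and 4 the adjusted one.

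The output factors had differences of the same direction as the REV-ERB genes without passing. Dbp, an activator of D-box genes, read 7.68, 7.60 and 7.39 at CT12 against 6.60, 6.93 and 6.54 at CT18. All later arrays were below all earlier ones, and the difference of −0.87 ± 0.161 missed the threshold (SE, limma adjusted p = 0.0737), while in control fat Dbp fell by 0.96 (limma adjusted p = 0.026). Hlf read 8.17, 8.01 and 7.77 and then 7.20, 7.32 and 7.49, a difference of −0.65 ± 0.149 (SE, limma adjusted p = 0.128). Tef differed by −0.18 and its groups overlapped. Nfil3, the repressor of the same D-boxes, went the opposite way, from 7.30, 7.73 and 8.01 to 8.50, 8.28 and 8.72. This was a difference of 0.82 ± 0.258 (limma adjusted p = 0.207), against 1.27 in control fat.

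Among the Period and Cryptochrome genes, Per3 had the largest difference. It read 8.19, 7.64 and 7.54 at CT12 against 6.98, 6.87 and 7.37 at CT18 in knockout fat, without overlap, and the difference was −0.72 ± 0.163 (SE, limma adjusted p = 0.125), beside −0.87 in control fat. Per2 read 7.38, 7.56 and 7.33 and then 7.09, 7.11 and 7.11, so its CT18 arrays were almost equal. Its difference was −0.32 ± 0.105 in knockout fat (limma adjusted p = 0.22) and −0.06 in control fat, where the groups overlapped. Per1 differed by −0.12, Cry1 by 0.22 and Cry2 by −0.20 (limma adjusted p of 0.711, 0.448 and 0.418), and of these Cry2 alone had groups that did not overlap.

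Arntl, which the REV-ERB proteins repress, was higher at CT18 on all 3 knockout arrays than at CT12. Its difference was 0.52 ± 0.157 (SE, limma adjusted p = 0.188), while in control fat it rose by 0.98 ± 0.157 (limma adjusted p = 0.0179). The difference between the genotypes' steps was −0.46, with a 95% interval from −0.92 to 0.00, and did not pass over all genes (unadjusted p = 0.0503, limma adjusted p = 0.999). Clock differed by 0.05 and Rora, whose receptor activates RORE genes, by 0.01, and both directions turned when some arrays were left out. Bhlhe41, an E-box repressor, read 7.66, 8.18 and 7.45 and then 6.67, 7.23 and 7.07, a difference of −0.78 ± 0.349 (limma adjusted p = 0.331) beside −1.22 in control fat. Bhlhe40 differed by −0.04. Ciart, a repressor also called CHRONO, differed by −0.14 on its brighter probe set and by −0.70 on the dimmer one.

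The knockout and control steps had the same sign in 14 of the 17 clock genes. Among these 14 the knockout difference was the smaller in size in 11. The same shares over all genes were not worked out, so neither count is taken as particular to clock genes. No clock gene reached an unadjusted p of 0.05 for the difference between the steps, and the lowest, 0.0503, was that of Arntl. For Nr1d1 the step differed between genotypes by 0.15, with a 95% interval from −0.31 to 0.62, and for Dbp by 0.09, with an interval from −0.39 to 0.56. These intervals leave room for steps that differ by over 0.5 on the log2 scale, so the genotypes were not shown to be alike.

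**Figure D2:**
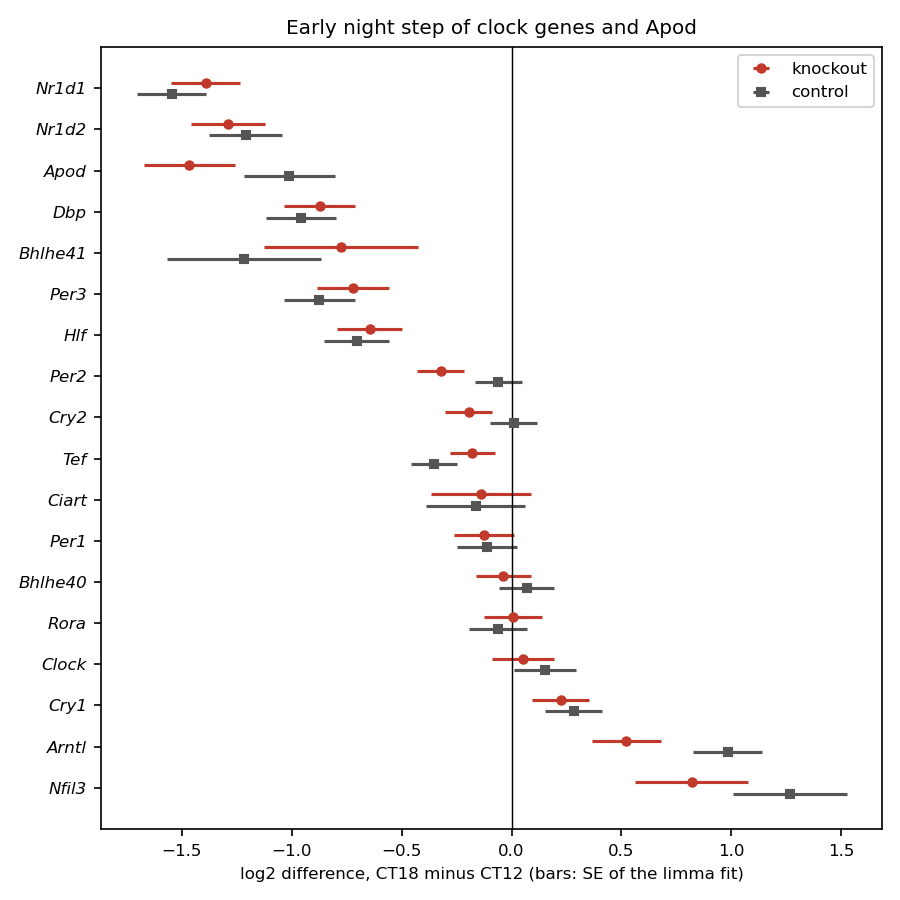
Log2 difference CT18 minus CT12 of the 17 clock genes and Apod in knockout (circles) and control fat (squares), with bars for 1 SE of the limma fit over 24 arrays. Nr1d1 and Nr1d2 lay below −1 in both genotypes, and the bars of Arntl, Per2 and Apod did not overlap between the genotypes although no difference between the steps passed the adjusted threshold.

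Outside the clock, the genes nearest to the threshold were small in their differences. Of the genes lower at CT18, Sqstm1, which encodes the autophagy receptor p62, came next after Dbp. It read 9.10, 9.13 and 9.01 at CT12 against 8.64, 8.77 and 8.67 at CT18, a difference of −0.38 ± 0.0726 (SE, limma adjusted p = 0.078). In control fat the difference was −0.25, and there too the groups did not overlap.

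Leaving aside predicted, clone-based and numbered family symbols, the 5 genes higher at CT18 with the smallest p all missed the threshold. Hspa1l, a member of the HSP70 chaperone family, read 5.91, 5.92 and 5.72 and then 6.69, 6.11 and 6.75. Replicate 2 at CT18 was the lowest of the later arrays, and the difference was 0.67 ± 0.118 (SE, limma adjusted p = 0.06), beside −0.11 in control fat. Popdc2, a membrane protein gene known from heart and muscle, differed by 0.45 (limma adjusted p = 0.0679) and by 0.33 in control fat. Spopfm2, Chst4, a sulfotransferase gene, and Klra5, of the Ly49 receptor family, differed by 0.42, 0.48 and 0.47 (limma adjusted p = 0.114 each). Spopfm2 belongs to a set of near-identical copies, and its 3 probe sets hold the same values, so the copy cannot be named. Klra5 was dim, at a mean of 3.12 at CT12 and 3.58 at CT18.

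A fold of at least 2 in either direction was found in 13 genes (0.0652%), 11 lower (0.0552%) and 2 higher. Of the 11, Nr1d1, Nr1d2 and Apod passed. The other 8 were Zim1, Gpnmb, Atp6v0d2, Mmp12, Lilr4b, Vsig4, Cd68 and Aox3, named here after their values were seen. Knockout replicate 2 at CT12 was the highest of the 6 arrays for 6 of the 11. Atp6v0d2, a proton pump subunit of osteoclasts and macrophages, read 10.23 on that array against 6.41 and 6.70 on the other CT12 arrays and 6.01 to 6.63 at CT18. Mmp12, macrophage elastase, read 10.19 there against 5.86 and 7.65. For both genes the fold rests on 1 array, since without it the differences were −0.18 and −0.15. Zim1 rests on knockout replicate 3 at CT18, without which its difference was −0.22. Without replicate 2 at CT12, Gpnmb, Lilr4b and Cd68 differed by −0.77, −0.61 and −0.64. The genes higher by at least 2-fold were Cnn1, a smooth muscle calponin, and Rnu3a, a small nucleolar RNA gene of a multicopy family.

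Genes of phagocytes were lower at CT18 in sign, and none passed. All 13 macrophage markers measured were below 0, with a median of −0.45, beside 0.04 in control fat. Of these, 7 had an unadjusted p under 0.05, where 5.84% of all genes were lower at that p. The list was bright, with a mean level of 8.2, and in the brightest quintile of all genes 13.6% were lower at that p. Cd68, a lysosomal membrane protein of macrophages, read 8.65, 10.03 and 8.99 at CT12 against 8.28, 8.57 and 7.69 at CT18, a difference of −1.04 ± 0.300 (SE, limma adjusted p = 0.176). The highest array was again replicate 2 at CT12. C1qa and C1qb, subunits of complement C1q, differed by −0.59 and −0.46, and the lysozyme gene Lyz2 by −0.52. For Cd68 the control difference was −0.20, and the difference between the steps was −0.84, with a 95% interval from −1.73 to 0.04.

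The mean level of the 13 macrophage markers was 8.29, 8.68 and 8.30 on the knockout arrays at CT12 against 8.06, 8.21 and 7.74 at CT18. The groups did not overlap, and the lowest array, replicate 3 at CT18, was one of the pair that lay toward the control arrays. In control fat the levels ran from 8.12 to 8.34 at CT12 and from 7.94 to 8.53 at CT18, and overlapped. Without knockout replicate 2 at CT12 the median of the list was −0.29 and 1 member had an unadjusted p under 0.05, and without replicate 3 at CT18 these were −0.22 and 1. All 13 were below 0 in each of these settings. Without both of the arrays that lay toward the controls the median was −0.27.

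A list of lysosomal and lipid-handling phagocyte genes, made after values were seen, had 17 of 19 members below 0 and a median of −0.57, against −0.16 in control fat. Gpnmb, a membrane glycoprotein of lipid-laden macrophages, read 7.91, 9.81 and 7.50 and then 7.06, 7.38 and 6.37 (limma adjusted p = 0.141). Legumain (Lgmn), cathepsin K (Ctsk) and the complement receptor gene Vsig4 differed by −0.82, −0.70 and −1.10 without passing. Without knockout replicate 2 at CT12 the median of the list was −0.18. Since the list was built from these arrays, its direction is no evidence of its own.

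Mast cell markers were likewise all below 0, 8 of 8, with a median of −0.25, and 4 had an unadjusted p under 0.05, where 5.84% of all genes were lower at that p. In control fat 6 of the 8 were below 0 as well, with a median of −0.09, and none was lower at that p. Mcpt4, a mast cell chymase, read 7.35, 7.08 and 6.92 at CT12 against 6.35, 6.89 and 6.16 at CT18 (difference −0.65 ± 0.221 SE, limma adjusted p = 0.233). Fcer1a, the alpha chain of the IgE receptor, differed by −0.48, the protease gene Cpa3 by −0.39 and the growth factor receptor Kit by −0.27. The mean level of the list was 6.17, 6.02 and 5.89 and then 5.72, 5.81 and 5.71, without overlap. Without the pair of arrays that lay toward the controls the median was −0.17 and 1 member had an unadjusted p under 0.05.

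Smooth muscle and pericyte markers lay the other way. Of 12 measured, 10 were above 0 with a median of 0.32, 6 had CT18 arrays all above the CT12 arrays (10.8% of all genes did), and none passed. Cnn1 read 7.80, 7.71 and 8.14 and then 9.15, 9.28 and 8.68, a difference of 1.16 ± 0.425 (SE, limma adjusted p = 0.255) beside 1.00 in control fat. Rgs5, a pericyte gene, differed by 0.50, the receptor gene Notch3 by 0.24 and Cspg4, the pericyte proteoglycan NG2, by 0.19. The mean level of the list was 7.76, 7.79 and 8.04 at CT12 against 8.28, 8.37 and 8.03 at CT18, so the groups touched. In control fat the median was 0.17 and the levels ran from 8.16 to 8.20 and then from 8.34 to 8.57. What part cell make-up has in these lists was not tested.

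**Figure D3:**
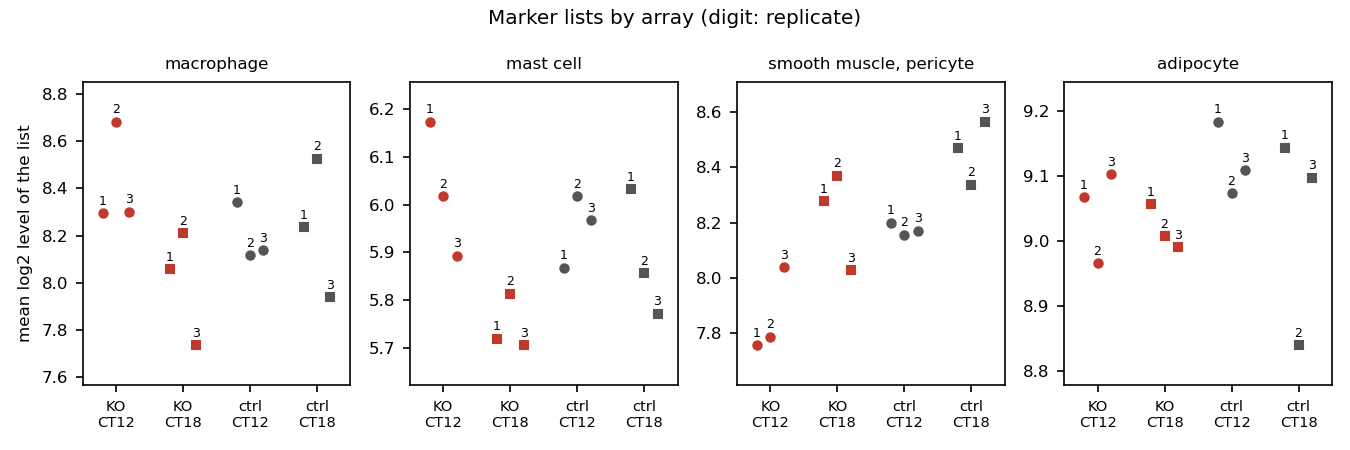
Mean log2 level of the macrophage, mast cell, smooth muscle and pericyte, and adipocyte lists on each array, with the replicate number beside the point, for knockout (KO) and control (ctrl) fat; each panel has its own vertical scale. In knockout fat the macrophage and mast cell levels at CT18 lay below those at CT12, the smooth muscle levels met at replicate 3 of each time, and the adipocyte levels overlapped.

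Adipocyte genes differed little between the hours. Of 18 adipogenic factors and adipocyte markers, 9 lay above 0 and 9 below, and the median was 0.00. Pparg, the master regulator of the adipocyte state, read 10.54, 10.39 and 10.45 at CT12 against 10.14, 10.13 and 9.94 at CT18. The groups did not overlap, with a difference of −0.39 ± 0.136 (SE, limma adjusted p = 0.237), beside −0.51 in control fat. Cebpb, an early adipogenic factor, went from 6.89, 6.75 and 7.02 to 7.18, 7.08 and 7.34, a difference of 0.32 (limma adjusted p = 0.156), beside −0.04 in control fat. Klf9 and Ebf2 differed by −0.16 and −0.19.

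Lipid and glucose genes had no member past the threshold. The lists described had mean levels from 8.05 to 9.49, and the brightest quintile of all genes had a median of −0.06 in knockout fat. In de novo lipogenesis, 9 of 15 members were above 0, with a median of 0.08, which was −0.12 without knockout replicate 3 at CT18. Fasn, fatty acid synthase, read 8.15, 6.92 and 8.0 at CT12 against 8.52, 7.71 and 9.26 at CT18, so each group spanned over 1 unit and they overlapped. Its difference was 0.80 ± 0.483 (SE, limma adjusted p = 0.467). Acacb, the acetyl-CoA carboxylase that restrains fat oxidation, differed by −0.54, Aacs by −0.29 and the sugar-sensing factor Mlxipl by −0.25.

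Triglyceride synthesis had 5 of 12 members above 0 and a median of −0.06, which was 0.02 without knockout replicate 2 at CT18. Pck1, the kinase that supplies glycerol phosphate in fasted fat, differed by −0.48, and Lpin1, a phosphatidate phosphatase, by −0.35. Agpat2 and Mogat2 differed by −0.24 and 0.18. Lipolysis and lipid droplet genes had 7 of 18 above 0 and a median of −0.08, which was 0.07 without the pairs of arrays that lay toward the other genotype and 0.02 without knockout replicate 1 at CT12. Plin2, a coat protein of lipid droplets, read 10.11, 10.89 and 10.50 and then 10.11, 10.22 and 9.87, a difference of −0.44 (limma adjusted p = 0.273). Plin4 differed by −0.29, Pnpla2, the lipase ATGL, by −0.21, and its coactivator Abhd5 by −0.20.

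Fatty acid uptake genes were split, 6 of 12 above 0, with Acsl4, an acyl-CoA synthetase, at −0.33 and without overlap between the groups. Acsl5, Vldlr and Angptl4 differed by −0.19, −0.26 and 0.18. Of 16 genes of fatty acid oxidation and fasting, 12 were below 0, with a median of −0.05. In control fat 14 were below 0, with a median of −0.16. Cpt1a, which moves fatty acids into mitochondria, read 7.72, 7.88 and 7.90 and then 7.49, 7.63 and 7.02, a difference of −0.45 ± 0.135 (SE, limma adjusted p = 0.188). The coactivator Ppargc1a differed by −0.45, Acot2 by −0.13 and the hormone gene Fgf21 by 0.26.

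Among glycolytic genes Pfkfb3, which makes the activator of phosphofructokinase, read 10.54, 10.32 and 10.48 at CT12 against 9.70, 10.08 and 9.63 at CT18. The difference was −0.64 ± 0.175 (SE, limma adjusted p = 0.163), and −0.80 in control fat. Pdk2, Pgk1 and Pkm differed by −0.34, 0.24 and 0.23. In insulin and mTOR signalling, 14 of 20 members were below 0, with a median of −0.07. In control fat 13 were below 0, with a median of −0.04. The list's mean level was 8.15, and the brightest quintile of all genes had a median of −0.06 in knockout fat. Igfbp3, a binding protein of insulin-like growth factors, read 9.05, 8.79 and 8.17 and then 7.92, 7.90 and 7.77, a difference of −0.81 ± 0.196 (limma adjusted p = 0.141). Akt2, the kinase that carries the insulin signal in fat, differed by −0.54, Pik3ca by −0.21 and the stress gene Sesn3 by 0.34.

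Matrix genes were mostly higher in sign. Of 18 collagen and matrix genes 14 were above 0, with a median of 0.21 beside 0.01 in control fat, where 59.6% of all genes were above 0 in knockout fat. Of the 18, 4 were higher at an unadjusted p under 0.05, against 8.11% of all genes. Col15a1, a basement membrane collagen, read 6.91, 6.94 and 7.96 at CT12 against 8.09, 7.91 and 7.68 at CT18. CT12 replicate 3 lay among the later arrays, and the difference was 0.62 ± 0.226 (SE, limma adjusted p = 0.254). Col6a3, Col5a1 and Col5a2 differed by 0.40, 0.22 and 0.21. Without knockout replicate 1 or 2 at CT12, or replicate 1 at CT18, none of the members was higher at an unadjusted p under 0.05. Without replicate 2 at CT18 there were 2, without replicate 3 at CT12 there were 8, and without replicate 3 at CT18 there were 10. Without both same-numbered pairs of arrays there were 8, with a median of 0.23. Fibroblast and progenitor markers had 9 of 11 below 0, but without knockout replicate 3 at CT18 5 of 11 were below 0 with a median of 0.04, and without both same-numbered pairs of arrays 3 of 11 were. With all arrays the matrix proteoglycan gene Dcn differed by −0.23, the peptidase gene Dpp4 by −0.38, Pdgfra by −0.36 and Pdgfrl by −0.16.

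Genes of ribosome biogenesis, a list also made after values were seen, had 38 of 45 members below 0 in knockout fat, with a median of −0.14 beside 0.01 in control fat. An unadjusted p under 0.05 was reached by 17, all lower, and none passed; at that p 5.84% of all genes were lower, with 9.28% and 13.6% in the brighter quintiles. The list was built from these arrays, so its count is no evidence of its own. Brix1, a factor of the large subunit, read 9.14, 9.32 and 9.22 at CT12 against 8.24, 8.90 and 8.81 at CT18, a difference of −0.58 ± 0.127 (SE, limma adjusted p = 0.114), beside −0.16 in control fat. Utp4 and Utp11, of the complex that processes small subunit RNA, differed by −0.51 and −0.32, and Rcl1 by −0.56. The list's mean level was 7.96, 8.06 and 7.97 and then 7.77, 7.84 and 7.89, and its median lay between −0.10 and −0.18 when any knockout array was left out.

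Of 22 immediate early genes, 18 were above 0, by a median of 0.06, which is close to that of all genes, and 4 had an unadjusted p under 0.05, all higher, as were 8.11% of all genes. In control fat 4 were higher at that p as well, with a median of 0.06. The knockout count was 0 without knockout replicate 1 at CT18 and 6 without replicate 2 at CT18. With all arrays, Jun differed in knockout fat by 0.29, Nr4a1 by 0.26, Ier5 by 0.24 and Jund by 0.19. Among 18 genes of xenobiotic and retinol metabolism, Ephx1, a microsomal epoxide hydrolase, read 8.44, 8.31 and 8.36 and then 7.68, 8.18 and 6.98, a difference of −0.75 ± 0.200 (SE, limma adjusted p = 0.157). Fmo2, Ces2e and Aldh1a7 differed by −0.31, 0.16 and 0.42. Of 11 other E-box and D-box output genes 8 were below 0, with Wee1, a kinase that holds back mitosis, at −0.44, Tspan4 at −0.33, Coq10b at −0.32 and Leo1 at 0.31.

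**Figure D4:**
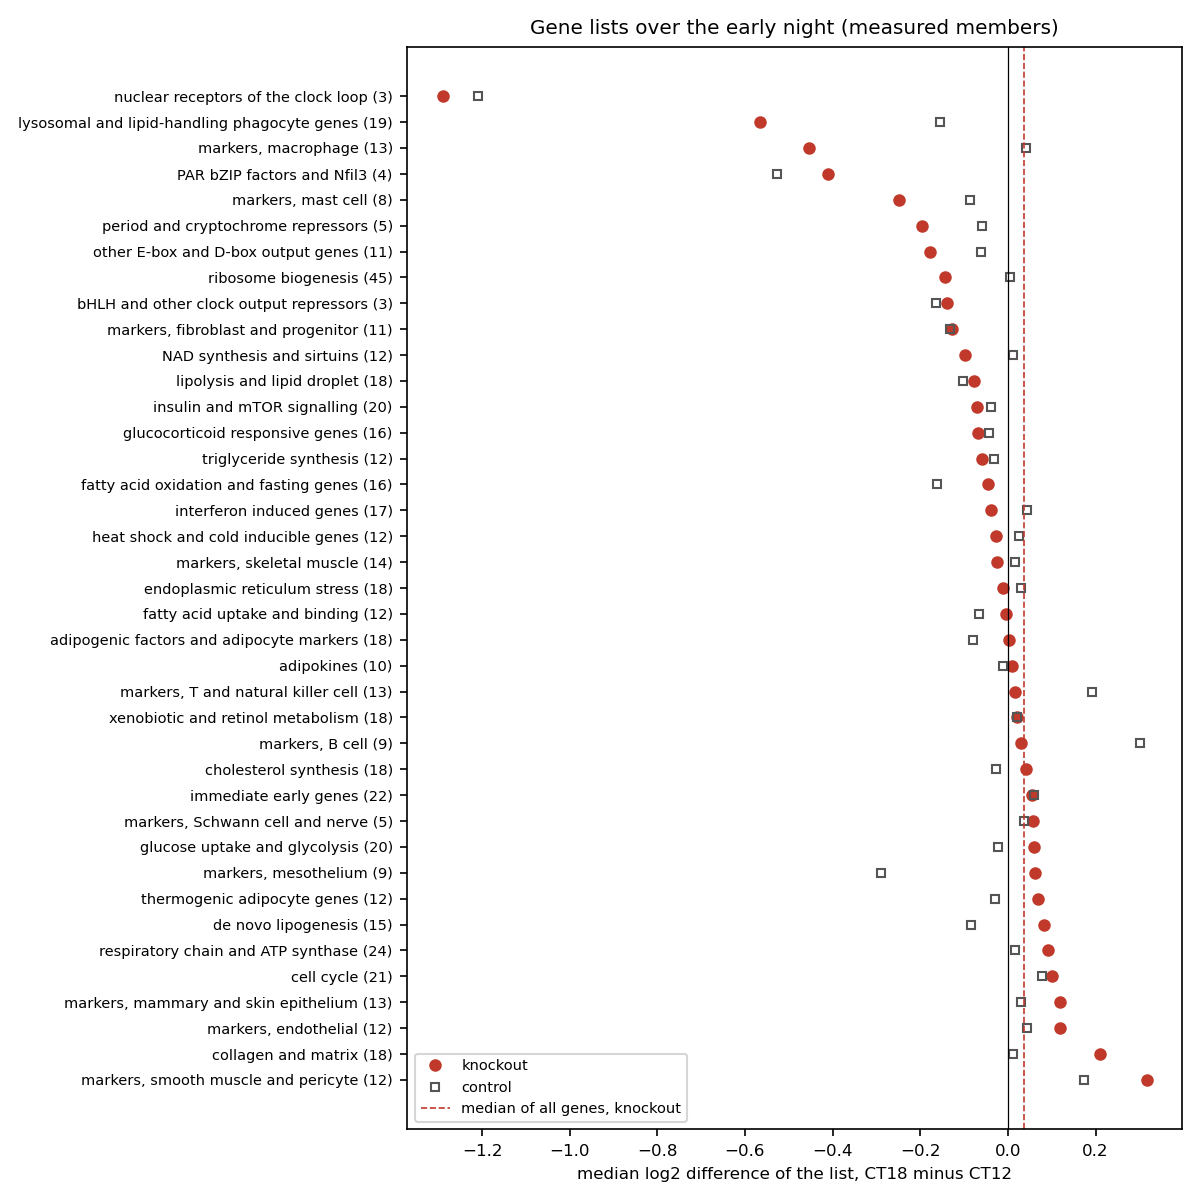
Median log2 difference CT18 minus CT12 of each gene list with at least 3 measured members (number in brackets), in knockout (filled circles) and control fat (open squares), with a dashed line at 0.04, the median of all genes in knockout fat. The macrophage list lay at −0.45 in knockout and 0.04 in control fat, and the smooth muscle list at 0.32 and 0.17.

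No gene passed the test of the difference between the knockout and the control step in limma, and 878 (4.4%) had an unadjusted p under 0.05. That count was 1478 without knockout replicate 2 at CT18 and 1491 without both same-numbered pairs of arrays. Among the steps higher in knockout fat, leaving aside symbols not named here, the smallest p belonged to Hspa1l. Its difference was 0.77 ± 0.166 (SE, limma adjusted p = 0.892), and next came Kir3dl2, an immune receptor gene, and Ntsr2, a neurotensin receptor. Ntsr2 read 6.50, 6.28 and 6.39 at CT12 against 6.77, 6.56 and 7.01 at CT18 in knockout fat, and 6.70, 6.67 and 6.75 and then 6.62, 6.53 and 6.39 in control fat. Its later arrays were all higher than the earlier ones in knockout fat and all lower in control fat, with a difference of 0.58 between the steps (limma adjusted p = 0.999). In the other direction came Taf5l, of a histone acetylase complex, Ngdn and Vav2, at −0.49, −0.42 and −0.52. Among genes with an unadjusted p under 0.05 in knockout fat, 254 had one in control fat with the same sign. This is 9.13% of the knockout genes, where 5.56% of all genes had one in control fat, 2.98% higher and 2.58% lower. It is 22.9% of the 1109 control genes, where 14% of all genes had one in knockout fat. Of the 2782 knockout genes, 2015 (72.4%) had a control difference of the same sign, whatever its p. The same share over all genes was not worked out, so 72.4% has no background beside it. In both genotypes the medians of dim genes lay above 0 and those of the brightest below 0. The part of that shift in this share was not tested.

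The many small differences of the knockout step followed expression level. With genes split into quintiles by their mean over all arrays, the median of the dimmest was 0.08, and those of the next were 0.09, 0.06, −0.02 and −0.06, so dim genes read higher and bright genes lower at CT18. At an unadjusted p under 0.05, 11.2% of the dimmest quintile were higher and 1% lower, while in the brightest quintile 2.21% were higher and 13.6% lower. In control fat the medians ran from 0.03 to −0.03. The gap between the medians of the brightest and dimmest quintile was 4.54, 4.54 and 4.57 on the knockout arrays at CT12 against 4.34, 4.52 and 4.37 at CT18, so replicates 1 and 3 at CT18 had a narrower range than replicate 2. After quantile normalization 1149 genes were higher and 1127 lower at that p, and after cyclic loess 1010 and 1198, against 1617 and 1165 as deposited. Nr1d1, Nr1d2 and Apod passed in each. Without replicate 2 at CT18, the array with the wider range, 139 genes passed, 62 higher and 77 lower, and Hspa1l (limma adjusted p = 7.24e-05) and Dbp (0.0231) were among them. Without replicate 3 at CT12, 15 passed. The part of this shift with level in single genes was not tested.

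**Figure D5:**
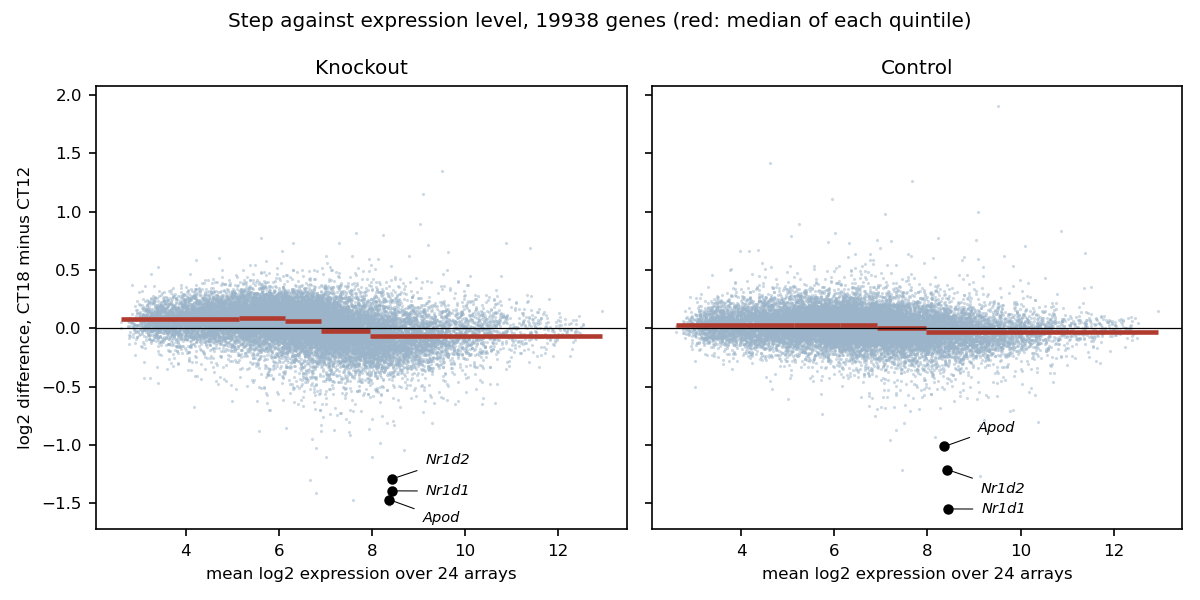
Log2 difference CT18 minus CT12 of 19938 genes against their mean log2 expression over 24 arrays, in knockout (left) and control fat (right), with a red line at the median of each quintile of genes by mean. The line runs from 0.08 to −0.06 in knockout fat and from 0.03 to −0.03 in control fat, and the 3 genes that passed in knockout fat are named in both panels.

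The other steps of the day in knockout fat, which share arrays with this one, had 1 gene past limma's adjusted threshold from CT0 to CT6 (0.00502%), 0 from CT6 to CT12, where 1006 (5.05%) had an unadjusted p under 0.05, and 26 from CT18 to CT0 (0.13%), 17 of them higher and 9 lower at CT0.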

How the data were processed

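Per the submitters' processing notes, the authors processed the arrays with RMA, a robust multi-array average, and the deposited values are on a log2 scale. Its version is not given in the sources used here. No further normalization was applied in the main analysis. Of 35556 probe sets, 21789 had 1 symbol in the platform annotation, and the brightest probe set stood for each of 19938 genes. One linear model of 8 groups was fitted to all 24 arrays with limma 3.58.1 in R 4.3.3 (16 residual and 5.03 prior degrees of freedom), with Benjamini-Hochberg adjustment over all genes and a threshold of 0.05. The knockout step, the control step and their difference were contrasts of it. Errors are standard errors of the fit unless SD is named. Arrays have no depth, and 3 arrays a group limit the precision.

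The members and most lists were chosen with earlier results of these data known, so lists are described by counts and medians and have no test. An exact permutation test of summed marker levels, planned for 3 against 3 arrays with a smallest two-sided p of 0.1, was left out for the same reason. The genes named are all measured clock genes, the largest changes past the threshold in each direction, the 5 of smallest p where fewer than 5 passed, up to 4 of smallest p in each list described, and the 3 of smallest p in each direction for the difference between genotypes. Predicted, clone-based and numbered family symbols were counted and not named. Alternatives were quantile normalization, a mean level of at least 5, a replicate block, a model of the compared arrays alone, eBayes with trend and robust settings, all probe sets, and arrays left out; cyclic loess was added after the shift with level was seen. The fit was tested on simulated data of the knockout step with 19938 genes, drawn with independent normal noise and no shift between arrays. Log2 changes of size 0.5, 1 and 2 were planted in 67, 67 and 66 genes. The fit recovered 47, 67 and 66 of these (70.1%, 100% and 100%), with 10 false calls. These shares depend on how many genes were planted, because the Benjamini-Hochberg adjustment is less strict where more genes change. In the real knockout step only 3 genes passed. The real arrays also differ in range and shift with level, so the shares need not hold for them. Of the 13 genes with a fold of at least 2 in the real data, 3 passed. Same-numbered knockout arrays of CT12 and CT18 correlated at 0.088, 0.086 and −0.096 in their deviations from the group means, so the numbers were not taken as pairs. Promoter windows were searched in Python 3.11.15.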

Additional observations from a re-analysis of the deposited data

How the results depend on the processing

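The knockout step kept 3 genes past the threshold with quantile normalization, cyclic loess, the level minimum, eBayes with trend and robust settings, all probe sets, and without knockout and control replicate 1 at CT12 and replicate 3 at CT18. With the replicate block it had 3, with 2707 genes at an unadjusted p under 0.05, and the block changed no call in the control step (5) or the interaction (0); the numbers do not pair the arrays. With the compared arrays alone 2 genes passed in the knockout step, Nr1d1 and Rnu3a, Nr1d2 and Apod missed it, and 1 passed in the control step, where all probe sets gave 3. When 1 array was left out, the knockout step had 3 to 139 genes past the threshold (139 without replicate 2 at CT18, 15 without replicate 3 at CT12), the control step 1 to 6, and the difference between genotypes 0 to 2. The cause was not tested. Among 101 named genes under 14 alternatives, with no value for 3 genes under the level minimum, 1378 values kept sign and side, 2 lost the call, 19 gained it and 12 turned sign, all of the last far from the threshold. Without the 2 pairs of arrays Rora was −0.143, Ciart 0.037, Leo1 −0.014, Ebf2 0.004 and Pdgfra 0.01. With single arrays left out Clock lay between −0.059 and 0.225, Rora between −0.136 and 0.137, Bhlhe40 between −0.104 and 0.051 and Aldh1a7 between −0.047 and 0.714. Of the medians of 41 lists under the alternatives, 343 stayed within the spread and 26 moved. With 3 arrays a group, the smallest difference that passed in the main knockout step was −1.29, that of Nr1d2. Dbp at −0.87 and Hspa1l at 0.67 missed the threshold although their groups did not overlap. A difference that did not pass is therefore not shown to be absent.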
